A study of Mus musculus with 8 samples.

Results

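Ptk7 and 9 core planar polarity genes were followed in the developing epididymal duct of mouse embryos, with every library shown. The genes were chosen by symbol (Ptk7, Vangl1, Vangl2, Celsr1, Celsr2, Celsr3, Prickle1, Prickle2, Scrib and Ankrd6), all 10 were found by Ensembl identifier among the 46517 genes of the count table. The rule for their choice names no measured value, though earlier results of these data were known when the list was drawn up. RNA sequencing of total RNA was done on epididymal ducts, which form from the Wolffian duct, dissected at embryonic day 18.5. There were 4 libraries labelled conditional knockout, called Ptk7 cKO here and numbered 1, 2, 4 and 5 in their titles. These embryos carried a loxP-flanked (flox) Ptk7 allele over Xst87, a disrupted Ptk7 allele. The 4 control libraries, numbered 1, 3, 4 and 6, came from embryos with a wild-type and a flox Ptk7 allele. Both genotypes carried the T-Cre transgene and the mT/mG membrane-Tomato and membrane-EGFP reporter. T-Cre places Cre recombinase under the promoter of T (Brachyury), a gene of early mesoderm. The flox allele of the controls was therefore open to recombination as well, while their wild-type allele carries no loxP sites. Control levels of Ptk7 are those of this genotype and not of wild-type embryos. Whether each library is a separate embryo, litter or pool is not stated in the labels. The p-values set the difference between groups against the scatter of these libraries, and part of that scatter may be technical. They therefore may not carry over to embryos or litters.

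Planar cell polarity is the alignment of cells within the plane of a tissue. Its core proteins sort to opposite sides of each cell: Frizzled receptors and Dishevelled gather on one side, Vangl and Prickle proteins on the other, and the Celsr cadherins bridge both sides across the junction. Ptk7 is a receptor-like membrane protein whose kinase domain lacks activity, and it interacts genetically with Vangl2 in the mouse. In developing tubes this pathway is known for oriented cell rearrangements and for tube elongation, and the Wolffian duct lengthens and coils before birth.

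Total counts ranged from 24807970 to 29590547 per library. Markers of duct epithelium and of mesenchyme were present in every library, as the labelled tissue would hold: the 26 epithelial markers, led per kilobase by Krt18 and Krt8, summed to 1535 to 2146 CPM (read counts normalised to library size with TMM factors) in Ptk7 cKO libraries and 1861 to 2175 CPM in controls. The 12 mesenchyme markers, led by Dcn and Col1a1, summed to 19010 to 24390 CPM in Ptk7 cKO libraries and 16990 to 21920 CPM in controls. The median log2 fold change was -0.34 for the epithelial and 0.07 for the mesenchyme markers. It was -0.32 for 14 smooth muscle, 0.41 for 9 mesothelium and 0.53 for 12 neuron and Schwann cell markers. For 10 endothelium markers it was 0.11, and for 11 red cell and macrophage markers 0.22. In edgeR 0 genes of all these lists passed the adjusted threshold. DESeq2 called 5 epithelial and 2 smooth muscle markers lower, 4 mesothelium markers and 1 neuron and Schwann cell marker higher, and 0 mesenchyme and 0 endothelium markers. It also called 1 red cell marker, Hba-a2, higher. The part of all these markers in the polarity genes was not tested. In bulk RNA, fewer cells of a type and less RNA per cell cannot be told apart. One library labelled knockout, Ptk7 cKO 5, had as much Ptk7 as controls, against its label. The fold changes of the 9 polarity genes tested are therefore given with it and without it. Other results include it unless stated. Without it the marker medians were -0.31 for epithelial, 0.01 for mesenchyme and -0.36 for smooth muscle markers. They were 0.33 for mesothelium, 0.53 for neuron and Schwann cell, -5.9e-05 for endothelium and 0.10 for red cell and macrophage markers. No gene of 16469 tested passed an adjusted p of 0.05 in edgeR's quasi-likelihood test over all 8 libraries (0% called), while 1379 (8.37%) had an unadjusted p under 0.05 and DESeq2 called 186.

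Ptk7 lies on the minus strand of GRCm38 chromosome 17, from 46564451 to 46629504 (ENSMUSG00000023972), and its level divided the libraries. Of its raw counts, 191, 199, 328 and 4751 were in the libraries labelled Ptk7 cKO 1, 2, 4 and 5, against 4791, 3379, 9002 and 4584 in controls 1, 3, 4 and 6. In CPM these were 7.33, 7.59, 12.5 and 194 in the Ptk7 cKO libraries, against 189, 112.5, 313 and 169 in controls. Ptk7 cKO 1, 2 and 4 lay far below every control, and Ptk7 cKO 5 lay inside the control range. With all 8 libraries the log2 fold change was -1.82 (95% interval -3.92 to 0.27, edgeR adjusted p = 0.655), which did not pass. In Ptk7 cKO 1, 2 and 4 the mean was 4.67% of the control mean, a log2 fold change of -4.42. In that fit Ptk7 was the 1 gene of 16697 past the adjusted threshold (0.00599%), but Ptk7 cKO 5 was set aside for its Ptk7 level, so for Ptk7 this is a description of the libraries kept and no test. Counts per gene do not separate transcripts of the Xst87 allele, of the recombined flox allele and of cells that escaped Cre, so the source of the 191 to 328 remaining counts cannot be told apart.

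The stretch around the Ptk7 start site is shown because this is where transcription of the gene that divides the libraries begins. The sequence is RefSeq's, on GRCm38.p6, chr17:46629455-46629754, minus strand, 250 bases before to 50 after the start, and that start coincides with the 5′ end of the gene in the deposited table.

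Ptk7: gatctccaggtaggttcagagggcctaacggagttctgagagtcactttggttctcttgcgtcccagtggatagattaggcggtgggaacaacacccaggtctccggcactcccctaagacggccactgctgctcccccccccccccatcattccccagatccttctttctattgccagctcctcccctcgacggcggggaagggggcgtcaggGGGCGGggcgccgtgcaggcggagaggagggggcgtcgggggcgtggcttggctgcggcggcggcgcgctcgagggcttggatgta

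Capitals mark the GC box GGGCGG, searched on both strands (reverse complement CCGCCC) with overlapping matches counted. The Ptk7 window held 1 such match and 22 CpG dinucleotides. Among 32851 RefSeq promoter windows of this length, 35.7% held the motif and the median CpG count was 7. Promoter windows were matched for 7 of the 10 genes, and Vangl1, Celsr1 and Scrib were not among them.

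**Figure D1:**
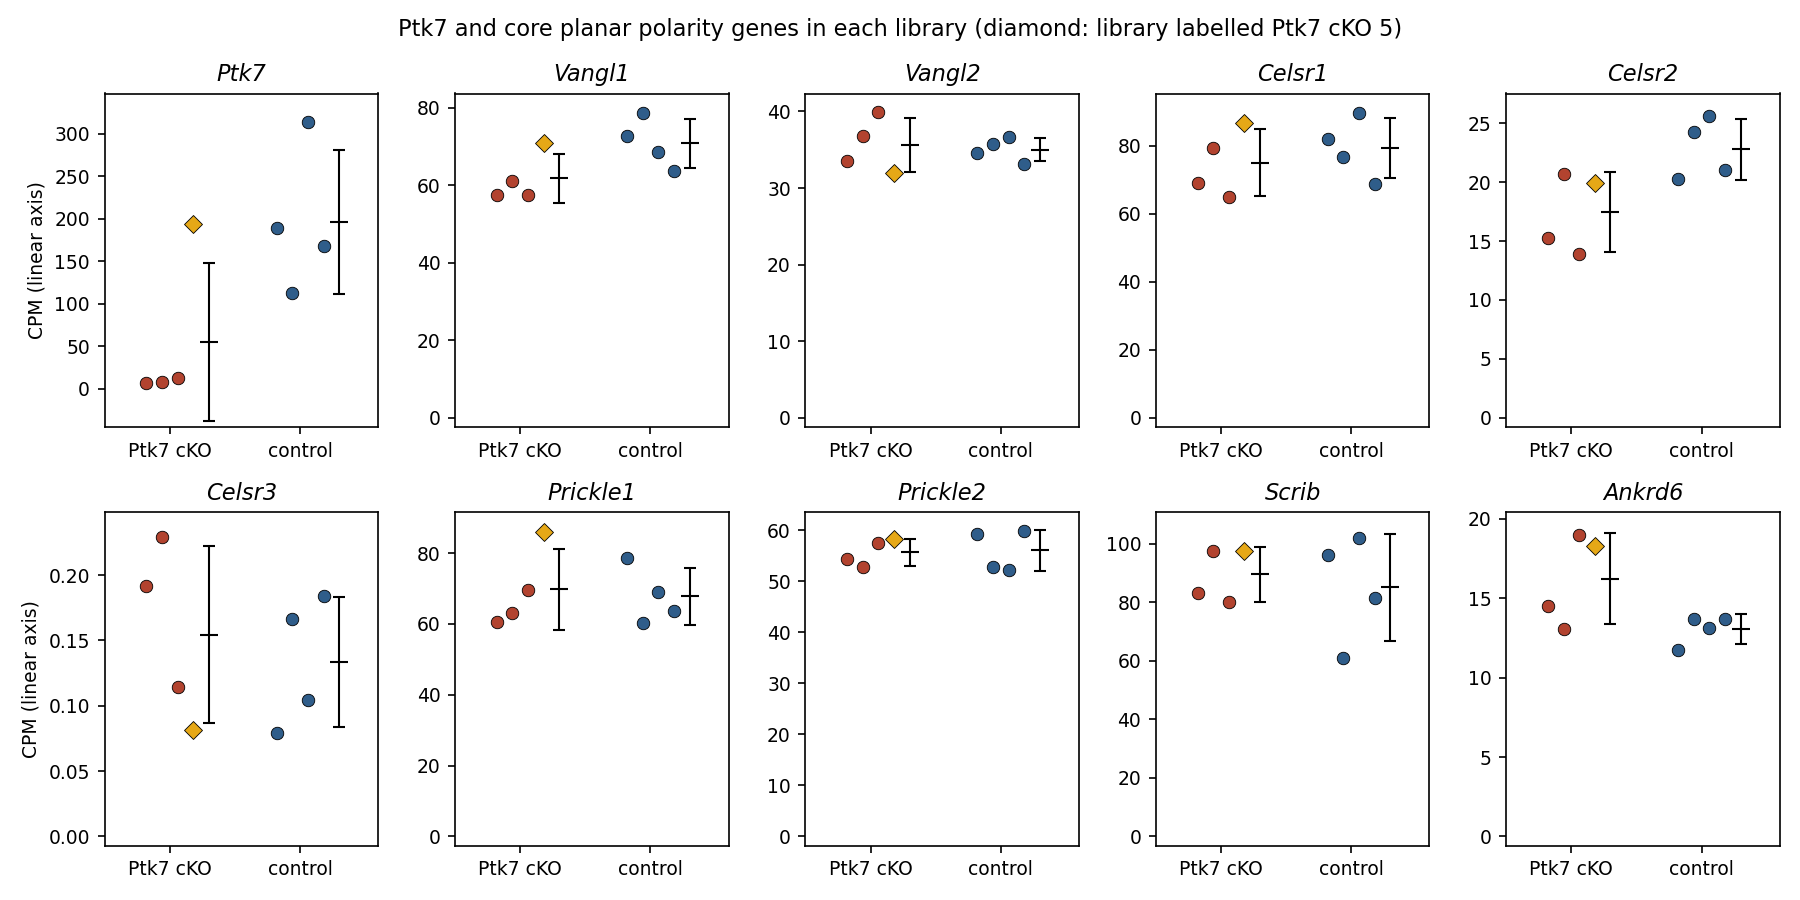
CPM of each of the 10 genes in every library, with a linear axis in each panel; red circles are Ptk7 cKO 1, 2 and 4, the yellow diamond is Ptk7 cKO 5, blue circles are controls, and black marks give the mean and SD of 4 libraries. Ptk7 is at 7.33 to 12.5 CPM in 3 Ptk7 cKO libraries and at 194 CPM in Ptk7 cKO 5, while the ranges of the 2 groups overlap in every panel.

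Within the controls alone Ptk7 varied more than most genes measured at 10 CPM or above. Control 4 had 2.79 times the Ptk7 CPM of control 3, and the coefficient of variation over the 4 controls was 43.2%. That ranked 66 from the highest among 10638 genes with a control mean of at least 10 CPM, whose median was 9.25%. Vangl2, in the same libraries, varied by 4.23%, and 88.4% of those genes varied more. Scrib was the other variable gene of the group at 21.5%, with control 3 the lowest control for both Ptk7 and Scrib and control 4 the highest for both. The remaining 6 genes tested lay between 7.09% (Ankrd6) and 11.9% (Prickle1).

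**Figure D2:**
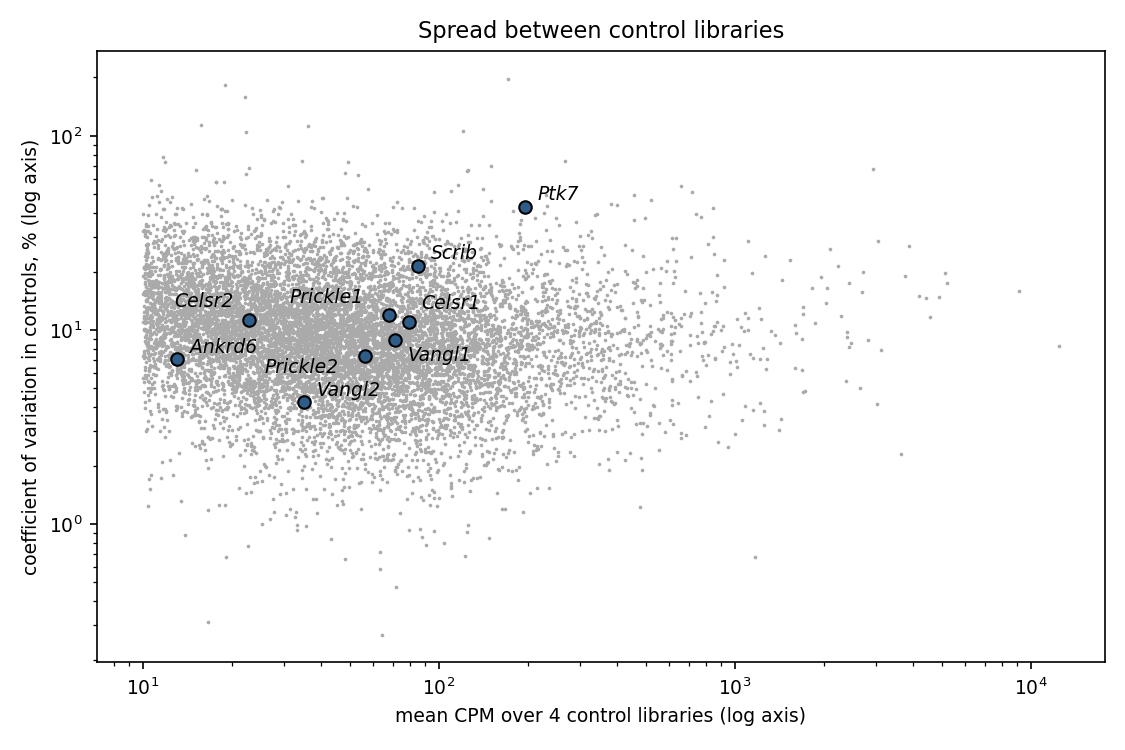
Coefficient of variation over the 4 control libraries (%, log axis) against mean control CPM (log axis) for 10638 genes, with 9 planar polarity genes in blue. Ptk7 stands at 43.2%, rank 66 from the top, and Vangl2 at 4.23% lies in the lower part of the cloud.

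Per kilobase of exon, which allows levels of different genes to be set side by side, Ptk7 was also the most abundant of the 10 in control ducts. Its control mean was 46.0 ± 19.9 CPM per kilobase (SD, n = 4), and its lowest control (26.4) was above the highest control of the next gene, Prickle1. Prickle1 and Scrib followed at 15.6 ± 1.86 and 14.9 ± 3.19 CPM per kilobase in controls, with overlapping ranges. Vangl1 stood at 9.90 ± 0.88, overlapping Scrib only at the edge (lowest Scrib control 10.6, highest Vangl1 control 11.0). Celsr1 (7.17 ± 0.79) and Prickle2 (6.50 ± 0.48) overlapped each other, and Vangl2 (5.01 ± 0.21) lay below both. Ankrd6 (2.38 ± 0.17) and Celsr2 (1.98 ± 0.22) overlapped in controls. Celsr3 was at 0.011 CPM per kilobase. In Ptk7 cKO ducts the ranges of Ankrd6 (2.39 to 3.47 CPM per kilobase) and Celsr2 (1.20 to 1.80) did not overlap each other, whereas Prickle1 (13.9 to 19.8) and Scrib (14.0 to 17.0) still did.

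**Figure D3:**
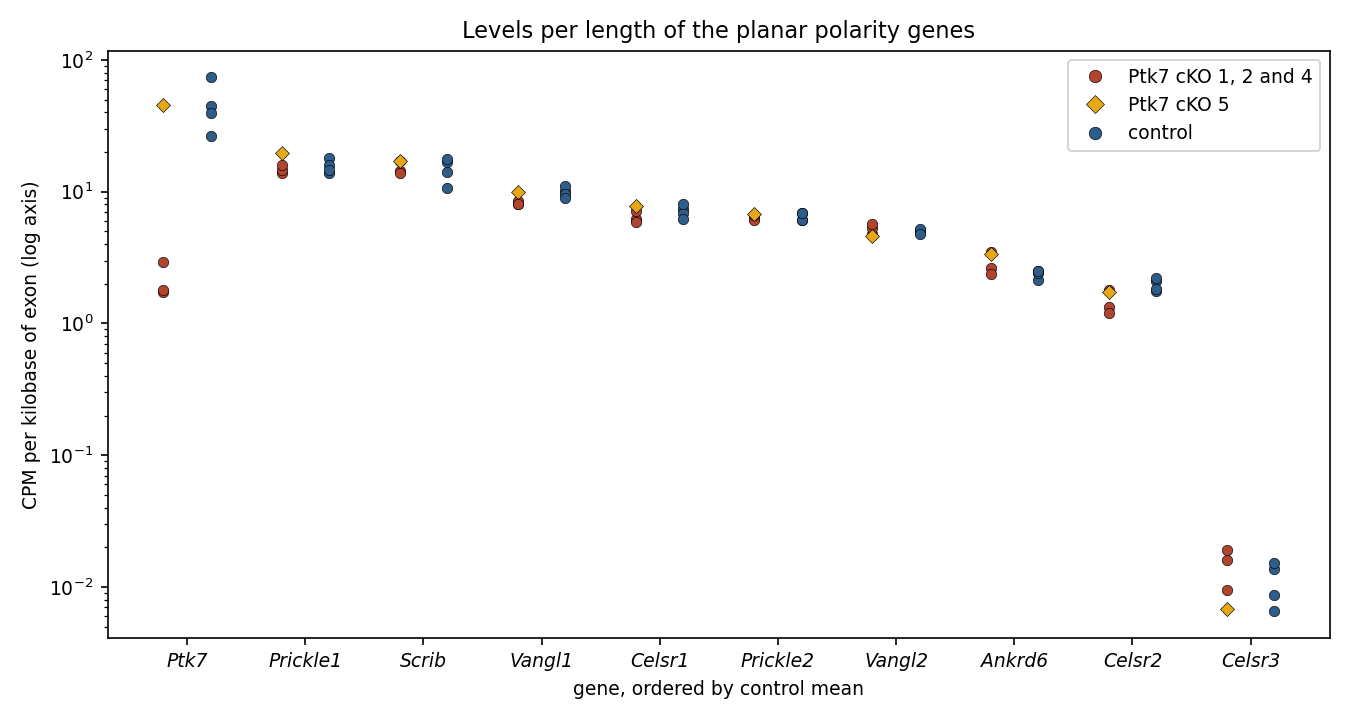
CPM per kilobase of exon (log axis) for each gene in every library, ordered by control mean, with Ptk7 cKO libraries left of controls and the yellow diamond for Ptk7 cKO 5. Ptk7 leads in controls at 46.0 CPM per kilobase, Celsr3 is last at 0.011, and the red Ptk7 points (lowest 1.72) lie near the level of Celsr2.

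The contrast of label with control asks whether the polarity machinery itself changes in RNA level when Ptk7 is removed. Of the 9 genes that passed the filter on low counts, 0 passed an adjusted p of 0.05 in edgeR or in DESeq2 over all 8 libraries. At an unadjusted edgeR p under 0.05 there were 2, Celsr2 lower and Ankrd6 higher, against 8.37% of all genes tested. In none of the 9 did the groups separate by range, against 5.76% of all genes. Without Ptk7 cKO 5, Ptk7, Vangl1 and Celsr2 had an unadjusted p under 0.05 (8.74% of all genes), and Ptk7 and Vangl1 did not overlap with controls (11.0% of all genes, 5.83% in the lower direction). Vangl1 and Celsr2 did not pass the adjusted threshold, and for Ptk7 itself that fit is no test.

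Vangl1 and Vangl2 are multi-pass membrane proteins that recruit Prickle to the membrane. Vangl1 (GRCm38 chromosome 3, 102153583 to 102204693, minus strand) had 57.6, 61.1, 57.5 and 71.0 CPM in Ptk7 cKO 1, 2, 4 and 5, against 72.6, 78.6, 68.5 and 63.7 CPM in controls 1, 3, 4 and 6. The 3 libraries with low Ptk7 were below every control, and Ptk7 cKO 5 stood inside the control range, as it did for Ptk7. The log2 fold change was -0.20 over all libraries (95% interval -0.40 to 0.0018, edgeR adjusted p = 0.60) and -0.27 without Ptk7 cKO 5 (95% interval -0.46 to -0.08, unadjusted p = 0.0109, edgeR adjusted p = 0.40), so neither passed over all genes. Vangl2 (GRCm38 chromosome 1, 172000960 to 172028444, minus strand), mutated in the Loop-tail mouse, had 33.6, 36.8, 39.9 and 32.0 CPM in Ptk7 cKO libraries, against 34.5, 35.8, 36.6 and 33.2 CPM in controls. The control values lay within those of the Ptk7 cKO libraries. Its log2 fold change was 0.02 with a 95% interval of -0.17 to 0.21 (edgeR adjusted p = 0.956), and 0.07 (-0.12 to 0.26) without Ptk7 cKO 5.

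Because the 2 Vangl genes differed in which libraries were low, the share of Vangl1 in their summed level per kilobase was followed. It was 62.6%, 61.9%, 58.5% and 68.4% in Ptk7 cKO 1, 2, 4 and 5, against 67.3%, 68.2%, 64.6% and 65.2% in controls 1, 3, 4 and 6. The 3 libraries with low Ptk7 lay below all controls, and Ptk7 cKO 5 lay above all of them. The shares averaged 62.9% ± 4.14 in Ptk7 cKO and 66.3% ± 1.69 in control (SD, n = 4 each). This share was computed after the levels were seen and no test is attached to it.

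Celsr1, Celsr2 and Celsr3 are multi-pass cadherins, the mammalian relatives of fly Flamingo, and Celsr1 is the one best known in mammalian epithelia. Celsr1 (GRCm38 chromosome 15, 85898758 to 86033777, minus strand) had 69.1, 79.1, 64.8 and 86.7 CPM in Ptk7 cKO 1, 2, 4 and 5, against 82.0, 76.7, 89.5 and 68.8 CPM in controls 1, 3, 4 and 6. The groups overlapped over most of their range, and the log2 fold change was -0.08 (95% interval -0.32 to 0.16, edgeR adjusted p = 0.849), and -0.16 (-0.39 to 0.08) without Ptk7 cKO 5. Celsr2 (GRCm38 chromosome 3, 108390851 to 108415552, minus strand) had 15.2, 20.7, 13.9 and 19.9 CPM in Ptk7 cKO libraries, against 20.2, 24.3, 25.6 and 21.0 CPM in controls. Ptk7 cKO 2 reached into the control range, and the other 3 lay below it, Ptk7 cKO 5 among them. The log2 fold change was -0.39 (SE 0.14, 95% interval -0.70 to -0.07, unadjusted p = 0.0198, edgeR adjusted p = 0.485) and -0.46 without Ptk7 cKO 5 (edgeR adjusted p = 0.43). Among the 9 genes Celsr2 had the smallest unadjusted p over all 8 libraries. Of the 26 duct epithelium markers, 15 were lower and 1 higher at an unadjusted edgeR p under 0.05, against 4.87% lower and 3.50% higher over all genes, with none past the adjusted threshold in edgeR and no marker at 0. Without Ptk7 cKO 5 there were 11 lower and 1 higher, against 5.0% and 3.74% over all genes. Their summed CPM in Ptk7 cKO 1, 2, 4 and 5 was 1702, 2146, 1535 and 1847, which is the order of Celsr2 across those 4 libraries, against 2087, 1958, 2175 and 1861 in controls 1, 3, 4 and 6, which is not the order of Celsr2 there. Scrib, with a log2 fold change of 0.07, also had the order of that sum across the Ptk7 cKO libraries and not across controls. Celsr1 had its order across the controls and not across the Ptk7 cKO libraries, where Ptk7 cKO 5 stood above Ptk7 cKO 2. The part of the epithelial markers in the Celsr1, Celsr2 and Scrib values was not tested.

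Celsr3, known best for axon guidance, was close to the counting floor and was not tested. It had 5, 6, 3 and 2 counts in Ptk7 cKO 1, 2, 4 and 5, against 2, 5, 3 and 5 counts in controls 1, 3, 4 and 6, and no fold is given. Celsr1 made up 81.7% ± 1.37 of the summed Celsr level per kilobase in Ptk7 cKO and 78.2% ± 1.86 in control (SD, n = 4 each), and Celsr3 made up 0.157% and 0.124%. The ranges of the Celsr1 share overlapped, with Ptk7 cKO 2 at 79.8% and control 1 at 80.8%. The promoter windows of Celsr2 and Celsr3 are shown because they are the lower 2 of the family in the same duct, with Celsr2 clearly detected and Celsr3 near the counting floor. They are RefSeq's on GRCm38.p6, chr3:108415530-108415829 on the minus strand for Celsr2 and chr9:108825795-108826094 on the plus strand for Celsr3, with GC boxes in capitals as for Ptk7.
Celsr2: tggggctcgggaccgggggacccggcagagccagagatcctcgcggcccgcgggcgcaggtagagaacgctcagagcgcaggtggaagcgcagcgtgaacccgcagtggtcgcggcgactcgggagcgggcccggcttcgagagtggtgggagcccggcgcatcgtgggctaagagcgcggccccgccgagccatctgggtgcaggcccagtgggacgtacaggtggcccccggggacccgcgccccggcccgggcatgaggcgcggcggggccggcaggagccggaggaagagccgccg
Celsr3: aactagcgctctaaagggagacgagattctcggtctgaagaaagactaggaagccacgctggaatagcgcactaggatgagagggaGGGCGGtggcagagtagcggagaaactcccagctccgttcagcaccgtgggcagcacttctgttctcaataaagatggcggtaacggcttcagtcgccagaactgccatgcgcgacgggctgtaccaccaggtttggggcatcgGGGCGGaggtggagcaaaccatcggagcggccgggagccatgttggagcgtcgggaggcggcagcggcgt
The Celsr2 window held 0 GC boxes and 40 CpG dinucleotides, and the Celsr3 window held 2 GC boxes and 25 CpG dinucleotides. These letters are a description of the windows only.

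**Figure D4:**
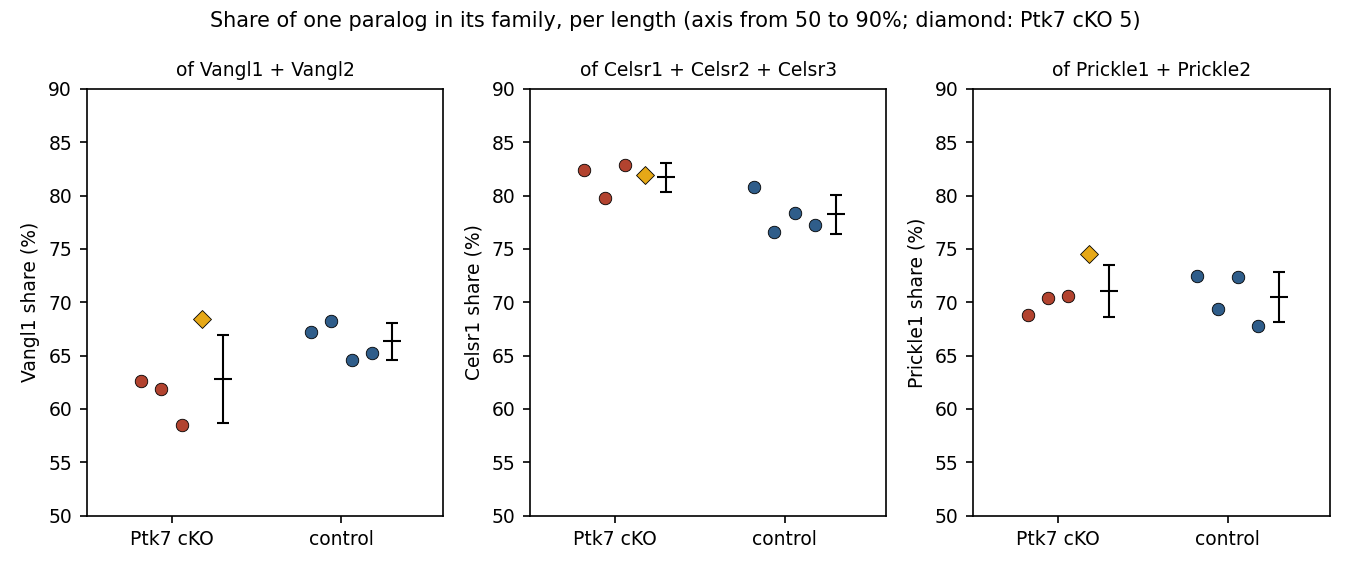
Share (%) of Vangl1, Celsr1 and Prickle1 in the summed level per kilobase of their family, per library, on an axis from 50 to 90%; Ptk7 cKO libraries are left of controls, the diamond is Ptk7 cKO 5, and black marks give the mean and SD. The Vangl1 share is 58.5% to 62.6% in Ptk7 cKO 1, 2 and 4, and 64.6% to 68.2% in controls.

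Prickle1 and Prickle2 are cytoplasmic LIM-domain proteins that act with Vangl. Prickle1 (GRCm38 chromosome 15, 93499114 to 93595891, minus strand) had 60.4, 63.1, 69.6 and 85.8 CPM in Ptk7 cKO 1, 2, 4 and 5, against 78.6, 60.2, 69.0 and 63.5 CPM in controls 1, 3, 4 and 6. Ptk7 cKO 5 was the highest library of all 8, and the other 3 lay within the control range. The log2 fold change was 0.04 (95% interval -0.22 to 0.30, edgeR adjusted p = 0.943) and -0.08 (-0.30 to 0.15) without Ptk7 cKO 5, and its sign also turned without control 3 (-0.01). Prickle2 (GRCm38 chromosome 6, 92370908 to 92706155, minus strand) had 54.4, 52.7, 57.5 and 58.4 CPM in Ptk7 cKO libraries, against 59.3, 52.9, 52.2 and 59.9 CPM in controls. All 4 Ptk7 cKO values lay inside the control range, and the log2 fold change of -0.01 had the narrowest 95% interval of the 9 genes over all libraries, -0.17 to 0.15 (edgeR adjusted p = 0.985). Without Ptk7 cKO 5 it was -0.03 (-0.21 to 0.15). Prickle1 made up 71.1% ± 2.42 of the summed Prickle level per kilobase in Ptk7 cKO and 70.5% ± 2.32 in control (SD, n = 4 each).

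Ankrd6, the mammalian Diversin, is an ankyrin-repeat protein that works with Dishevelled. Ankrd6 (GRCm38 chromosome 4, 32804035 to 32950841, minus strand) had 14.5, 13.1, 19.0 and 18.3 CPM in Ptk7 cKO 1, 2, 4 and 5, against 11.7, 13.7, 13.1 and 13.7 CPM in controls 1, 3, 4 and 6. Ptk7 cKO 1, 4 and 5 were above every control and Ptk7 cKO 2 was not, so the library labelled knockout with a control level of Ptk7 was among the high ones. The log2 fold change was 0.31 (SE 0.13, 95% interval 0.02 to 0.60, unadjusted p = 0.0364, edgeR adjusted p = 0.551) and 0.25 (-0.06 to 0.56) without Ptk7 cKO 5. Scrib, a scaffold of the basolateral membrane that binds Vangl proteins through its PDZ domains, lies on GRCm38 chromosome 15, 76047158 to 76069784, minus strand. It had 83.0, 97.6, 80.0 and 97.5 CPM in Ptk7 cKO libraries, against 96.2, 61.1, 102.1 and 81.3 CPM in controls. Control 3 was the lowest of all 8 libraries and the other controls overlapped the Ptk7 cKO values. The log2 fold change was 0.07 (95% interval -0.25 to 0.39, edgeR adjusted p = 0.905), and 0.03 (-0.32 to 0.39) without Ptk7 cKO 5. Leaving out control 3 made it -0.06.

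**Figure D5:**
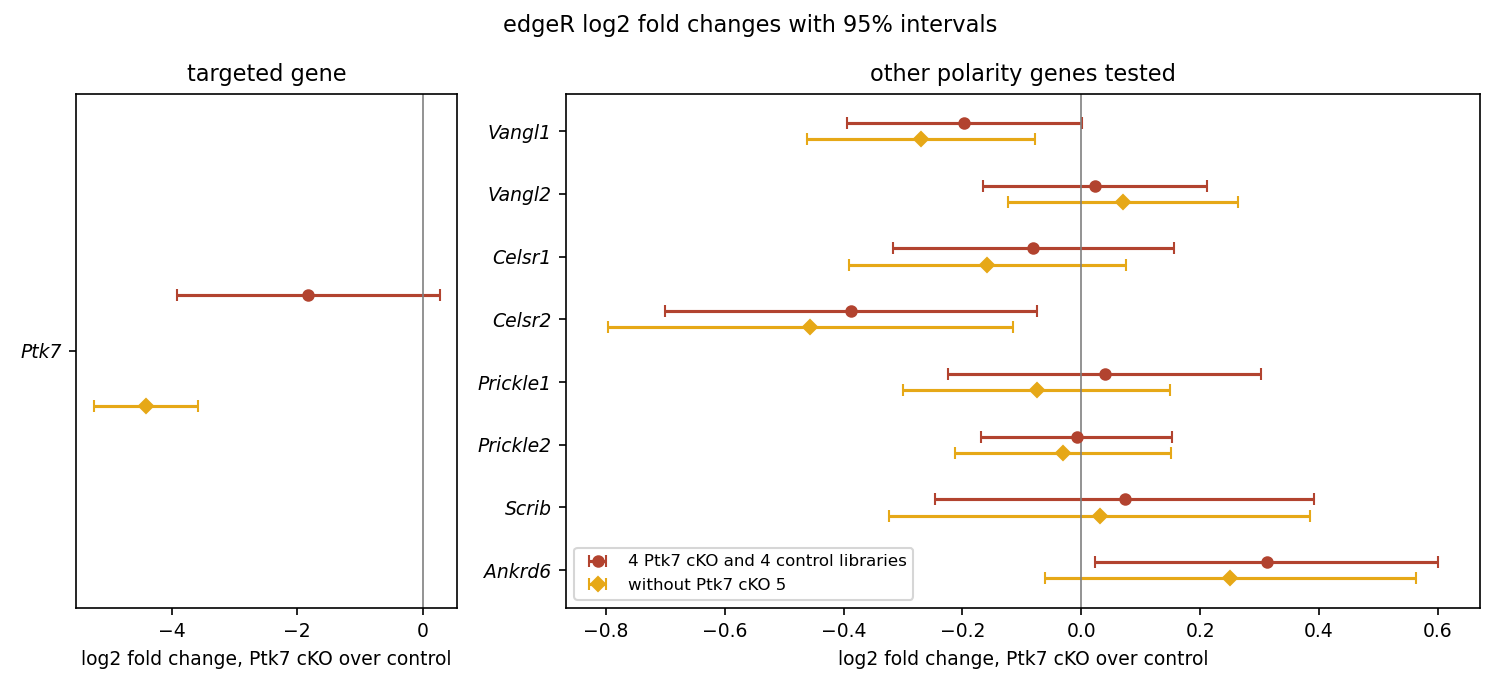
Log2 fold change of Ptk7 cKO over control with 95% intervals from edgeR for Ptk7 (left) and 8 other genes (right); red circles use all 8 libraries and yellow diamonds leave out Ptk7 cKO 5. Ptk7 is at -1.82, with an interval that crosses 0, over all libraries and at -4.42 without Ptk7 cKO 5, a library set aside for its Ptk7 level, while the 8 others lie between -0.46 and 0.31.

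The library labelled Ptk7 cKO 5 did not take one side in the other genes. It stood inside the control range for Vangl1, Celsr1, Prickle2 and Scrib, above it for Prickle1 (126.5% of the control mean) and Ankrd6 (139.9%), and below it for Vangl2 (91.4%) and Celsr2 (87.3%). Its red cell and macrophage markers, led per kilobase by Hbb-bs and Hba-a1, summed to 4156 CPM, against 1509 to 1695 CPM in the other Ptk7 cKO libraries and 936 to 2443 CPM in controls. Hbb-bs had 2110 CPM and Hba-a1 1290 CPM in Ptk7 cKO 5, against at most 1185 and 878.7 CPM in controls. The macrophage markers Csf1r (65.1 CPM) and Adgre1 (22.4 CPM) were above controls (at most 60.9 and 16.7 CPM), and Cd68 was inside their range. Hba-a2 was higher in every Ptk7 cKO library (54.1 to 178.9 CPM, against 10.1 to 22.1 CPM in controls). The part of these differences in the polarity genes was not tested.

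Among 48 other genes of the pathway tested over all 8 libraries, edgeR called 0 and DESeq2 called 2, against 0% and 1.13% of all genes. A list of 50 further genes of planar polarity and beta-catenin-independent WNT signalling was read next, of which all were found and 48 tested, and 0 passed in edgeR. At an unadjusted p under 0.05 there were 2 higher and 6 lower, against 3.50% higher and 4.87% lower over all genes, with a median log2 fold change of -0.0032 (0.0055 over all genes). Without Ptk7 cKO 5 there were 1 higher and 5 lower, against 3.74% and 5.0% over all genes. The 3 with the smallest p were the receptor Fzd6 (-0.58, edgeR adjusted p = 0.161), the ligand Wnt4 (0.49, edgeR adjusted p = 0.161) and the glypican Gpc4, a heparan sulfate proteoglycan of the cell surface. Fzd6 lay at 36.6 to 45.6 CPM in Ptk7 cKO and 58.1 to 66.95 CPM in control. Wnt4 lay at 75.9 to 79.3 CPM in Ptk7 cKO and 45.5 to 64.3 CPM in control. Neither overlapped. In this list 4 of the 48 genes tested had no overlap, against 5.76% of all genes tested. Gpc4 averaged 55.6 ± 8.66 CPM in Ptk7 cKO and 73.6 ± 9.51 CPM in control (SD, n = 4 each, log2 fold change -0.41, edgeR adjusted p = 0.358), and its ranges overlapped. DESeq2 called Fzd6 and Wnt4 over all 8 libraries, and Fzd6, Wnt4 and Gpc4 without Ptk7 cKO 5 (1.13% and 1.12% of all genes called).

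Partners of Scrib, apical polarity proteins and proteins known to bind or cut Ptk7 formed a second list of 35 genes, of which 34 were tested. None passed in edgeR, and at an unadjusted p under 0.05 there were 2 higher and 3 lower, against 3.50% higher and 4.87% lower over all genes, with a median log2 fold change of -0.01. Without Ptk7 cKO 5 the counts were again 2 and 3, against 3.74% higher and 5.0% lower over all genes. Crb2, an apical Crumbs protein, averaged 15.8 ± 2.58 CPM in Ptk7 cKO and 10.7 ± 0.39 CPM in control (SD, n = 4 each, log2 fold change 0.57, SE 0.12, edgeR adjusted p = 0.192). Its ranges did not overlap (12.5 to 18.8 CPM in Ptk7 cKO, 10.1 to 10.9 CPM in control), and DESeq2 called it (adjusted p = 0.00717, and 0.0359 without Ptk7 cKO 5). Patj, which joins the Crumbs complex, averaged 34.5 ± 3.24 CPM in Ptk7 cKO and 41.3 ± 2.10 CPM in control (log2 fold change -0.26, edgeR adjusted p = 0.401). Dlg4, a scaffold of the Discs large family, averaged 41.1 ± 4.71 CPM in Ptk7 cKO and 32.6 ± 5.35 CPM in control (log2 fold change 0.34, edgeR adjusted p = 0.507). The ranges of Patj (30.3 to 38.1 CPM in Ptk7 cKO, 38.2 to 42.8 CPM in control) did not overlap. Those of Dlg4 (37.8 to 48.0 CPM in Ptk7 cKO, 24.6 to 36.0 CPM in control) did not either. In this list 6 of the 34 genes tested had no overlap, against 5.76% of all genes. Dlg4 belongs to the family whose fly member works with Scrib.

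The genes whose pattern over the 8 libraries was most like that of Ptk7 were sought by Pearson r of log2 CPM among 13273 genes. They were Osbpl3 (r = 0.98), Sepsecs (0.97), Fgd3 (0.97), Tmem123 (0.97) and Ccdc47 (0.96), and as the extremes of a search these are a description with no test. Osbpl3 had 6.72, 6.79, 7.41 and 9.86 CPM in Ptk7 cKO 1, 2, 4 and 5, against 9.76, 8.56, 9.67 and 9.30 CPM in controls 1, 3, 4 and 6. Fgd3 had 1.84, 1.95, 2.21 and 3.76 CPM in Ptk7 cKO libraries, against 3.87, 2.76, 3.93 and 3.64 CPM in controls. Both shared with Ptk7 a low level in Ptk7 cKO 1, 2 and 4 and their lowest control value in control 3. In Ptk7 cKO 5, Fgd3 lay inside the control range, as Ptk7 did, and Osbpl3 lay just above it. For the other genes the most alike were Spry4 and Rpa2 for Vangl1 and Mxi1 and Zfp955b for Vangl2. Ccdc96 was among them for Celsr1 and Kcnq1 for Celsr2. Those for Prickle1 were Cdk13 and Cep290, for Prickle2 Srsf5 and Gbp2b, for Scrib Mad1l1 and Rrad, and for Ankrd6 Tulp3 and Zfp423. The r values of the genes named for these 8 ranged from 0.96 to 0.98, each over the same 8 libraries, and no polarity gene was among the nearest of another.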

How the data were processed

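The authors deposited raw counts per gene, 1 column per library, with the summed exon length of each gene. Per the submitters' processing notes, STAR and featureCounts were used on GRCm38; their versions, the annotation release and the strand setting were not given in the sources used here. Symbols were matched by Ensembl identifier for 46005 of 46517 genes. Exons of Vangl1 share 8 bases with an antisense gene, Gm16160, which had at most 12 counts, so reads there cannot be told apart by strand.

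Testing used edgeR 4.0.16 in R 4.3.3, with TMM factors, filterByExpr (16469 genes, 9 of the 10 members), a quasi-likelihood F test of group across the 8 libraries, and Benjamini-Hochberg adjustment over all genes at 0.05. The SE is the log2 fold change divided by the square root of F and is approximate, as are the 95% intervals made from it. The common biological coefficient of variation over all genes was 15.2%, which is not the spread of each gene. Over controls Vangl2 varied by 4.23% at 874 to 1074 counts and Ankrd6 by 7.09% at 297 to 411 counts. For those genes counting error is not small beside the spread between controls. No 2 of the libraries agreed within counting noise, with chi-square values of 13.7 to 81.7 per degree of freedom over the 28 pairs. CPM per kilobase is CPM divided by exon length. Log2 CPM for likeness used a prior count of 2 and genes with a mean of at least 1 CPM.

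The members and gene lists were chosen with earlier results of these data known. Named were all members, the 3 smallest p of each pathway list, the most alike genes (5 for Ptk7, 2 for each other, of which some are not reported here); of the marker lists, the 2 most abundant per kilobase are named where the list is described by its sum. All markers but Muc16 were matched. Alternatives were DESeq2 size factors, no filter, a minimum of 1 CPM in 4 libraries, DESeq2 1.42.0, each library left out, DESeq2 without Ptk7 cKO 5, and a block on the title's number. The code was tested on simulated data. Of 50 genes changed 1.25-fold edgeR called 1 and DESeq2 9, and of 50 changed 1.5-fold 19 and 27. At 2-fold each called 43 of 50. Among unchanged genes edgeR called 10 and DESeq2 30. Small changes can therefore be missed, and some DESeq2 calls can be false. Figures used matplotlib 3.10.9.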

Additional observations from a re-analysis of the deposited data

Results flagged for a closer look

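The Ptk7 level of the library labelled Ptk7 cKO 5, 194.3 CPM, stood far from the other libraries of its group: its gap to the next library was 0.972 of the group's whole range, above Dixon's 95% critical value for 4 samples. It was the 1 such value among 18 groups examined (9 genes in 2 groups of 4), where chance flags about 1 group in 20. These groups share the same libraries and are not independent. This library was known from an earlier analysis to go against its label, so the flag is a description and no test.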

How the results depend on the processing

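Ptk7 was called without the library labelled Ptk7 cKO 5 by edgeR (log2 fold change -4.42) and by DESeq2 (-4.42), and under the replicate block (-4.67), and not over all 8 libraries (-1.82). The library Ptk7 cKO 5 was left out for its Ptk7 level, and the block leaves it out too, so these calls of Ptk7 are no separate evidence. Leaving out 1 library at a time put it between -4.42 and -1.46. The number of polarity genes called was 0 in the edgeR test of all libraries and 1, Ptk7, under those 3 settings, and leaving out 1 library gave 0 to 1. Genes called overall numbered 0, against 1 with no filter on low counts, 186 by DESeq2, 185 by DESeq2 without Ptk7 cKO 5, 7 under the block, and 0 to 2 with 1 library left out. Of the wider pathway list DESeq2 called 2 and, without Ptk7 cKO 5, 3, and of the partner list 1 and 1, against 0 in edgeR. The replicate block used the numbers 1 and 4, found in both groups. Deviations of same-numbered libraries correlated at -0.09 and 0.02 over all genes tested. Such values cannot tell whether same-numbered samples shared a litter or day, because a shared source may move few genes. The causes of these differences were not tested.

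For the 8 tested genes other than Ptk7, 99 of 112 values kept their direction and none passed the adjusted threshold (lowest adjusted p 0.215). Of the 13 that turned, the farthest from 0 were those of Scrib and Prickle1 under the replicate block. Prickle1 was -0.072 in DESeq2 without Ptk7 cKO 5 and -0.18 under the replicate block, Prickle2 was 0.0084 and Scrib -0.28 under the block. With 1 library left out, Vangl2 ranged from -0.037 to 0.070, Prickle1 from -0.075 to 0.12, Prickle2 from -0.043 to 0.026 and Scrib from -0.057 to 0.17. Vangl1, Celsr1 and Celsr2 stayed below 0 and Ankrd6 above 0 under every alternative. Among the 10 genes depth limits Celsr3 most, at 2 to 6 counts per library.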
